A study of Homo sapiens with 19 samples.

Results

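The sites described here are 599 of the 1719 binding sites that HIF-2α occupied in control 786-O cells, those at which neither HIF-2α nor HIF-1α was called once full-length HIF-1α had been put back. They were selected on the peak lists: a window of the control HIF-2α list was taken if it shared no base with the HIF-2α list and none with the HIF-1α list of the re-expressing cells. 786-O is a human cell line of clear cell renal carcinoma origin. It lacks functional VHL, the protein that marks HIF-α subunits for destruction, and by the paper it expresses no wild-type HIF-1α. Pools of these cells, not clones, were transduced with the empty vector pRRL, with pRRL-HIF-1a or with pRRL-HIF-2a, the HIF vectors being bicistronic with EGFP, and are called control, HIF-1α re-expressing and HIF-2α overexpressing cells. All pools therefore shared the VHL defect and the endogenous HIF-2α, and the labels give one growth medium for all. Chromatin was immunoprecipitated once for HIF-2α and once for HIF-1β in each pool, and once for HIF-1α in the re-expressing cells only. This gave 7 peak lists with 29309 windows in all. RNA was sequenced in 3 libraries per pool.

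HIF transcription factors are dimers of an oxygen-regulated α subunit, HIF-1α or HIF-2α, with the constitutive partner HIF-1β. Both dimers read the same short core of the hypoxia response element (HRE), ACGTG or GCGTG, and in VHL-defective kidney cancer HIF-2α is the subunit that drives tumour growth. AP-1, a dimer of FOS and JUN proteins, reads TGACTCA or TGAGTCA and is known for its part at distal enhancers.

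A peak list says only that a site was called. Each window in the lists was 2500 bp wide and carried no score, so a site that was not called may still have held signal under the authors' limit, and the size of any fall in binding cannot be read from the peak lists. From read densities over all control HIF-2α sites, the paper reports that re-expression changed HIF-2α binding little. There the signals of re-expressing and control cells correlated closely and were centred on equal binding. Values for the 599 sites alone were not available here. The 599 sites are compared with the other control HIF-2α sites by what was called in HIF-1α re-expressing cells: 373 sites where HIF-2α was called again without HIF-1α (retained sites), 299 with HIF-1α and no HIF-2α (HIF-1α sites), and 448 with both (shared sites). With 1 library per list no p-value can be given between lists. Shares have 95% Wilson intervals and their differences 95% Newcombe intervals, which cover counting error only.

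The values that set the limit of the selection were few. Among the 599 sites the smallest gap to a HIF-2α window of the re-expressing cells was 14 bp, 7 sites lay within 1 kb of one and 66 within 10 kb. Among the retained sites the smallest overlap was 22 bp and the median offset between midpoints was 130 bp. For HIF-1α the smallest gap was 186 bp, and 6 of the 599 sites lay within 1 kb of a HIF-1α window.

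The sequences at 8 of the sites, each 81 bases of GRCh37 on the plus strand read 5′ to 3′, are given because they show the forms in which both motifs occurred beside genes named further on. Capitals mark every HRE core and every AP-1 match on either strand, and each stretch is centred on a match within 150 bp of the midpoint of the window.
PLIN2 (chr9:19116549-19116629, in an exon of PLIN2): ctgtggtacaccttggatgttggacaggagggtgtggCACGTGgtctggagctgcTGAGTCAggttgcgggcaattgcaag
TGFBI (chr5:135356384-135356464, between genes, upstream of TGFBI): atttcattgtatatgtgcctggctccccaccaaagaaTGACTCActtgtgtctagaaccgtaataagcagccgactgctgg
EGFR (chr7:55132967-55133047, in an intron of EGFR): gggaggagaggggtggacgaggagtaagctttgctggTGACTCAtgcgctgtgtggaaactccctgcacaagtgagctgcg
KCNE4 (chr2:223906366-223906446, between genes): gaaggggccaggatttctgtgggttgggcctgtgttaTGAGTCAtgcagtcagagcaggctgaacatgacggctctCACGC
NRCAM (chr7:107939700-107939780, in an intron of NRCAM): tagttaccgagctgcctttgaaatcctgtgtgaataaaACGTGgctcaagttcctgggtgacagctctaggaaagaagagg
SEMA6A (chr5:115863412-115863492, in an intron of SEMA6A): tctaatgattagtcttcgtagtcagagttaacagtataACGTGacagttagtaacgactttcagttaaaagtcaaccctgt
FHL2 (chr2:106028339-106028419, in an intron of FHL2): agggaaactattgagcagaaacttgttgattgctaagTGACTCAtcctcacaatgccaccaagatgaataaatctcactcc
FAH (chr15:80453083-80453163, in an exon of FAH): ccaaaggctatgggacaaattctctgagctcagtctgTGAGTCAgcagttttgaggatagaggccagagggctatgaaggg

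The PLIN2 site carried the palindrome CACGTG, which holds the HRE core on both strands, and an AP-1 match close by. The EGFR and TGFBI sites had an AP-1 match and no HRE core within 150 bp of the midpoint. The NRCAM and SEMA6A sites had an HRE core and no AP-1 match. At KCNE4 both were present, the HRE core on the minus strand at the edge of the stretch shown.

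Of the 4 classes, the 599 sites had the lowest share of calls in each of the 4 lists the selection did not use. These lists are not independent of the selection, since every other class was defined by a HIF-α call in the re-expressing cells. Whether sites near the limit of calling in one list were also missed in others was not tested. HIF-1β, the partner subunit, was called in control cells at 414 of them, 69.1% (65.3 to 72.7), against 94.1% of the retained sites. The difference was -25.0 percentage points (-29.3 to -20.4). The HIF-1α sites, at 92.0%, and the shared sites, at 98.9%, were also above. The remaining 185 sites were thus HIF-2α calls without a HIF-1β call in the same cells.

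In the re-expressing cells HIF-1β was called at 81 of the 599 sites, 13.5% (11.0 to 16.5). Among the retained sites the share was 42.4%, a difference of -28.8 percentage points (-34.5 to -23.1), and among the HIF-1α sites it was 50.5%. This library was not used by the selection but came from the same cell pool as the libraries that were. The other classes each had a call there for HIF-1α or HIF-2α, the partners of HIF-1β. A lower HIF-1β share at the 599 sites is therefore in part set by the selection. Of the 414 sites with HIF-1β in control cells, 72 (17.4%) had it in the re-expressing cells, against 152 of 351 retained sites (43.3%, difference -25.9, -32.1 to -19.5). The share was thus lower also among sites that had HIF-1β in control cells.

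HIF-2α overexpressing cells were not used by the selection. Overexpressed HIF-2α was called at 445 of the 599 sites, 74.3% (70.6 to 77.6). Of the retained sites 95.4% were called, a difference of -21.2 percentage points (-25.2 to -16.9), and of the HIF-1α sites 79.3%, a difference of -4.97 (-10.5 to 0.998) whose interval includes 0. Most of the sites without a HIF-2α call in one transduced pool thus had one in the other. That list was also longer, with 5283 peaks against 1350 in the re-expressing cells and 1719 in the control cells. The overlap that counts as a call sets the levels: with midpoints at most 250 bp apart instead of 1 shared base, the selection gave 995 sites, of which 31.0% had HIF-1β in control cells and 42.7% overexpressed HIF-2α, and the differences from the retained sites were -15.1 and -21.6 percentage points.

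HIF-1β was called less often than HIF-2α in the overexpressing cells. It was called at 162 of the 599 sites, 27.0%, against 63.0% of the retained sites and 96.2% of the shared sites, and the difference from the retained sites was -36.0 percentage points (-41.8 to -29.7). Where overexpressed HIF-2α was called, 149 of 445 sites (33.5%) also had HIF-1β there. Where it was not, 13 of 154 (8.44%) did. The HIF-1β list of the overexpressing cells was also shorter, with 3431 peaks against 6572 in control and 5807 in re-expressing cells. Over all 1719 control HIF-2α sites HIF-1β was called at 86.3% in control, 61.2% in overexpressing and 40.6% in re-expressing cells. Fewer HIF-1β calls than in control cells were thus not particular to the 599 sites.

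**Figure D1:**
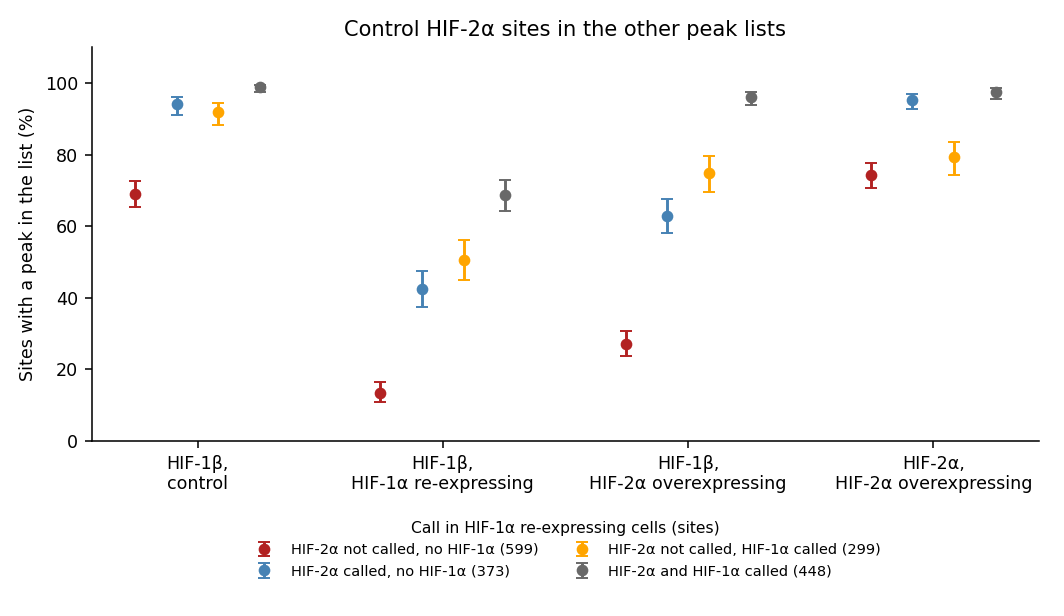
Share of control HIF-2α sites with a peak in 4 other lists, by what was called in HIF-1α re-expressing cells; points are percentages and bars 95% Wilson intervals. The 599 sites (red) lie lowest in every list, from 13.5% for HIF-1β in re-expressing cells to 74.3% for HIF-2α in overexpressing cells, where their interval meets that of the HIF-1α sites.

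Put together, the 4 lists divided the 599 sites into a few common patterns. The most frequent, at 169 sites (28.2%), was HIF-1β in control cells with HIF-2α in overexpressing cells. In 104 sites (17.4%) HIF-1β of the overexpressing cells was added to these. Overexpressed HIF-2α was the only other call at 100 sites (16.7%), and HIF-1β in control cells the only one at 59 (9.85%). No other list covered 73 sites, 12.2%, against 1.34% of the retained sites (difference 10.8, 7.89 to 13.8). At the other end 41 sites, 6.84%, were in all 4 lists, against 33.0% of the retained sites.

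HIF-1β was called in none of the pools at 173 of the 599 sites, 28.9%. The same held for 3.75% of the retained sites (difference 25.1, 20.9 to 29.2), 3.01% of the HIF-1α sites and 0 of the 448 shared sites. Where HIF-1β was called in control cells at one of the 599 sites, its midpoint lay a median of 258.5 bp from that of HIF-2α, against 249 bp at the retained sites.

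In position the 599 sites lay mostly away from promoters, as the retained sites did, and unlike the sites to which HIF-1α came. The midpoint was in an intron at 361 sites (60.3%), between genes at 192 (32.1%) and in an exon at 46 (7.68%). The nearest annotated transcription start site was a median of 8.59 kb away, with a middle range of 3.29 to 21.9 kb. The medians were 9.7 kb for the retained sites, 4.04 kb for the shared sites and 1.21 kb for the HIF-1α sites.

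Within 5 kb of a start site lay 207 of the 599 sites, 34.6%, and 34.3% of the retained sites, a difference of 0.241 percentage points (-5.94 to 6.3). With protein-coding start sites only, 19.4% of the 599 sites lay within 5 kb, and with one start site per gene 22.9%. Among the HIF-1α sites the share was 67.2%, a difference of -32.7 (-38.9 to -25.9), and among the shared sites 55.6%, a difference of -21.0 (-26.9 to -15.0). Closer than 1 kb lay 13.0%, 9.12% and 47.2% of the 599, the retained and the HIF-1α sites. The 599 and the retained sites did not differ beyond the intervals.

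**Figure D2:**
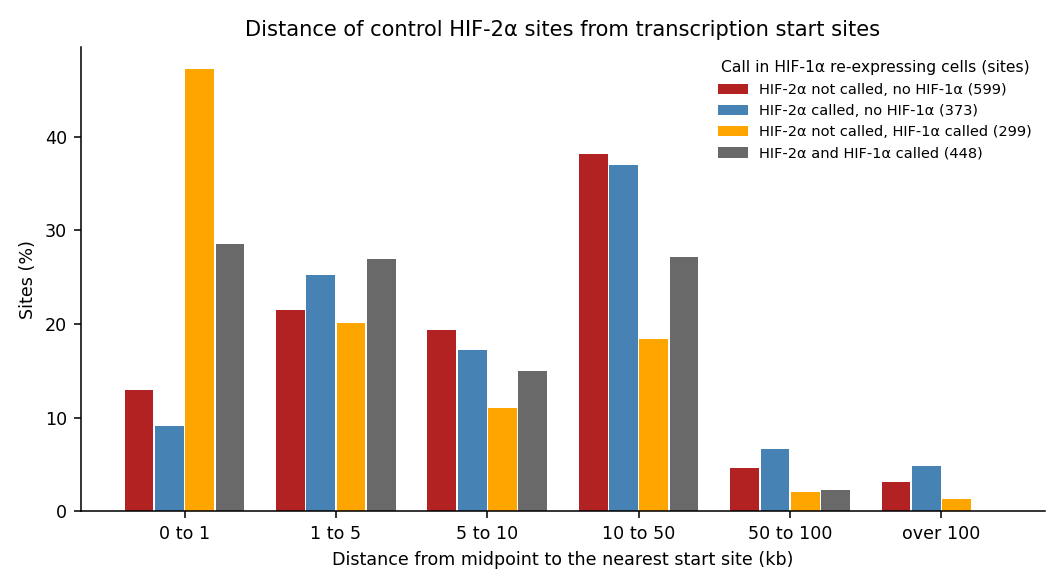
Distance from the midpoint of control HIF-2α sites to the nearest transcription start site, in kb, as the percentage of each class of sites. Of the 599 sites (red) 13.0% lay within 1 kb and 38.2% between 10 and 50 kb, close to the retained sites (blue, 9.12% and 37.0%), while 47.2% of the HIF-1α sites (orange) lay within 1 kb.

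The nearest start belonged to a protein-coding gene at 48.1% of the 599 sites and to a long non-coding RNA at 28.9%. Among the retained sites these were 41.3% and 37.0%, differences of 6.79 (0.357 to 13.1) and -8.12 percentage points (-14.2 to -2.07). The 300 bp about the midpoint had a median GC content of 46.0%, against 46.3% in the retained and 58.3% in the HIF-1α sites, and a median ratio of observed to expected CpG of 0.231, against 0.237 and 0.437. Both classes without HIF-1α were thus poor in CpG.

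The 599 sites stood more alone than the retained and the shared sites. Measured between midpoints, another control HIF-2α site lay within 10 kb of 10.0% of them, against 17.2% of the retained sites (difference -7.14, -11.8 to -2.75) and 18.3% of the shared sites (-8.29, -12.7 to -4.04). From the HIF-1α sites, at 11.7%, the difference was -1.69 (-6.36 to 2.45), which includes 0. The median distance to the next control HIF-2α site was 161 kb, against 66.2 kb for the retained and 117 kb for the HIF-1α sites. By the same measure, from midpoint to midpoint instead of between window edges, a HIF-2α site of the re-expressing cells lay within 10 kb of 55 of the 599 sites (9.18%). By chromosome the share of control HIF-2α sites that were among the 599 ran from 8 of 52 (15.4%, 8.01 to 27.5) on chromosome 19 to 21 of 40 (52.5%, 37.5 to 67.1) on chromosome 4, leaving out X and Y with 12 and 1 sites.

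The HRE core was found within 150 bp of the midpoint at 303 of the 599 sites, 50.6%, and the AP-1 motif at 190, 31.7%. Windows of the same width 2 kb to either side held them in 26.9% and 5.01% of cases, and 300 bp RefSeq promoters (GRCh38.p14, 35116 promoters) in 48.4% and 4.95%. Both strands were searched. Both motifs were thus more frequent at the midpoint than 2 kb away. One or the other was present at most sites: the core alone at 198, AP-1 alone at 85, both at 105 and neither at 211 (35.2%).

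Of the 4 classes the 599 sites had the lowest share with the core. It was 59.5% in the retained sites (difference -8.93, -15.2 to -2.5), 66.6% in the HIF-1α sites and 67.4% in the shared sites. AP-1 went the other way, with 26.0% in the retained sites (difference 5.71, -0.191 to 11.4, which includes 0), 27.0% in the shared sites and 21.4% in the HIF-1α sites (difference 10.3, 4.16 to 16.1). Of the whole HIF-1α list 7.73% held AP-1. For the core, windows 2 kb to either side had shares of 28.3%, 39.0% and 38.3% for the retained, HIF-1α and shared sites. For the 599 sites that share was 26.9%, so the HIF-1α and shared sites were higher beside the sites too. The interval of the core's difference from the retained sites included 0 for ACGTG only (-6.1, -12.4 to 0.21), over the whole window (-1.62, -4.07 to 1.11) or among sites with HIF-1β in control cells (-4.27, -11.2 to 2.75), and for ACGTG only the 599 sites differed from the HIF-1α sites by -0.396 (-7.16 to 6.2).

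Split by distance, the AP-1 share beyond 5 kb of a start site was 32.9% in 392 of the 599 sites and 23.3% in 245 retained sites, a difference of 9.64 (2.42 to 16.5). Within 5 kb it was 29.5% in 207 and 31.2% in 128, a difference of -1.78 (-12.0 to 8.08), and among sites with HIF-1β in control cells the difference was 5.19 (-1.27 to 11.5). The core differed by -7.09 (-14.9 to 0.861) beyond and by -12.4 (-22.9 to -1.47) within 5 kb.

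Across the windows of the 599 sites both motifs were most frequent in the central 100 bp. The core had 0.289 matches per site in that bin and 0.132 on average in the 8 outermost bins, and AP-1 0.137 against 0.0236. The retained sites had 0.332 and 0.132 for the core and 0.0885 and 0.0258 for AP-1, which was highest there, at 0.105, in the bin 100 bp to one side of the centre. GGAATG, the motif of the TEAD factors, was present at 27.4% of the 599 sites and 23.1% of the retained sites (difference 4.32, -1.36 to 9.77), with 17.4% in the windows to either side and 14.0% in promoters. The palindrome CACGTG, a subset of the HRE core matches, was present at 7.51% and 4.83% (difference 2.69, -0.564 to 5.65), with 3.17% in the windows 2 kb to either side of the 599 sites and 7.26% in promoters.

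**Figure D3:**
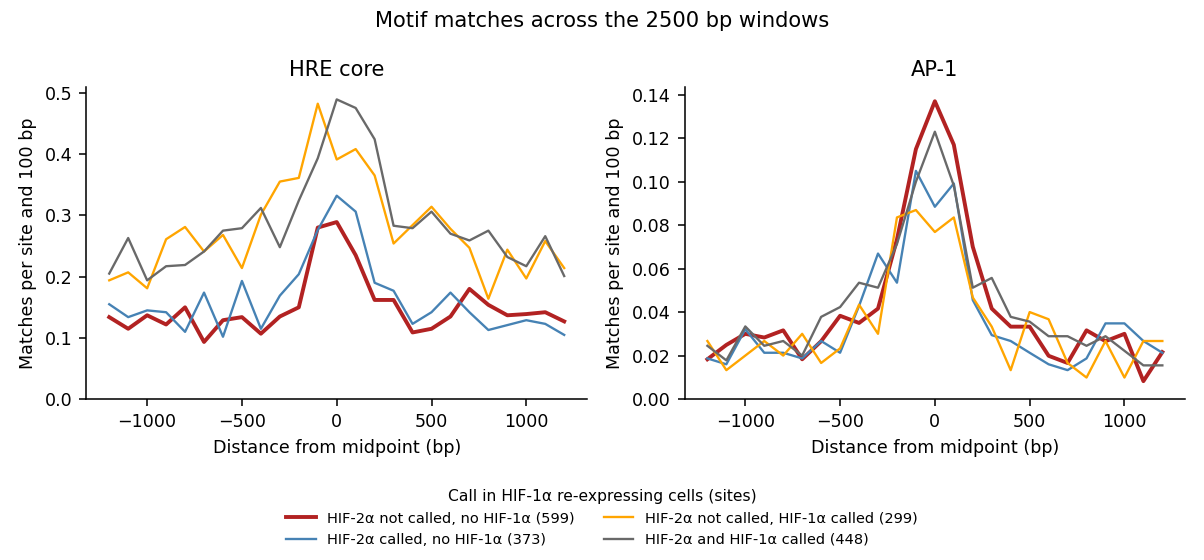
Matches to the HRE core (left) and the AP-1 motif (right) per site and 100 bp, by distance from the midpoint in bp, for the 4 classes of control HIF-2α sites. At the 599 sites (thick red line) the core stood at 0.132 in the outermost bins and 0.289 in the centre, and AP-1 at 0.0236 and 0.137, the highest AP-1 centre of the 4 classes.

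Among the 599 sites themselves the HRE core was more frequent where HIF-1β was called in control or overexpressing cells, and no such difference was seen for AP-1. The core was present at 55.6% of the sites with HIF-1β in control cells and 39.5% of those without (difference 16.1, 7.44 to 24.3). With and without HIF-1β in overexpressing cells it was present at 69.1% and 43.7% (difference 25.4, 16.6 to 33.5). By the same split the core was present at 64.7% and 50.7% of the retained sites and at 73.2% and 46.7% of the HIF-1α sites. For the shared sites these were 68.0% and 52.9%, the latter of 17 sites. The direction was thus not particular to the 599 sites. At the 173 of the 599 sites without HIF-1β in any pool the core was present at 38.7% (31.8 to 46.2). Windows beside all 599 sites held it in 26.9% of cases, and those beside the 173 alone were not counted. By HIF-1β in re-expressing cells the difference was 10.0 percentage points (-1.67 to 21.0), and by HIF-2α in overexpressing cells 1.66 (-7.43 to 10.7), both with intervals that include 0.

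AP-1 was present at 31.4% and 32.4% of the sites with and without HIF-1β in control cells, a difference of -1.03 (-9.27 to 6.81), and at 35.8% and 30.2% by HIF-1β in overexpressing cells (difference 5.6, -2.68 to 14.3). At the sites without HIF-1β in any pool it was present at 31.8%. Read the other way, HIF-1β of the overexpressing cells was called at 37.0% of the 303 sites with a core and 16.9% of the 296 without (difference 20.1, 13.0 to 26.8). The sites with overexpressed HIF-2α lay less often within 5 kb of a start site than those without, 31.7% against 42.9% (difference -11.2, -20.1 to -2.4).

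**Figure D4:**
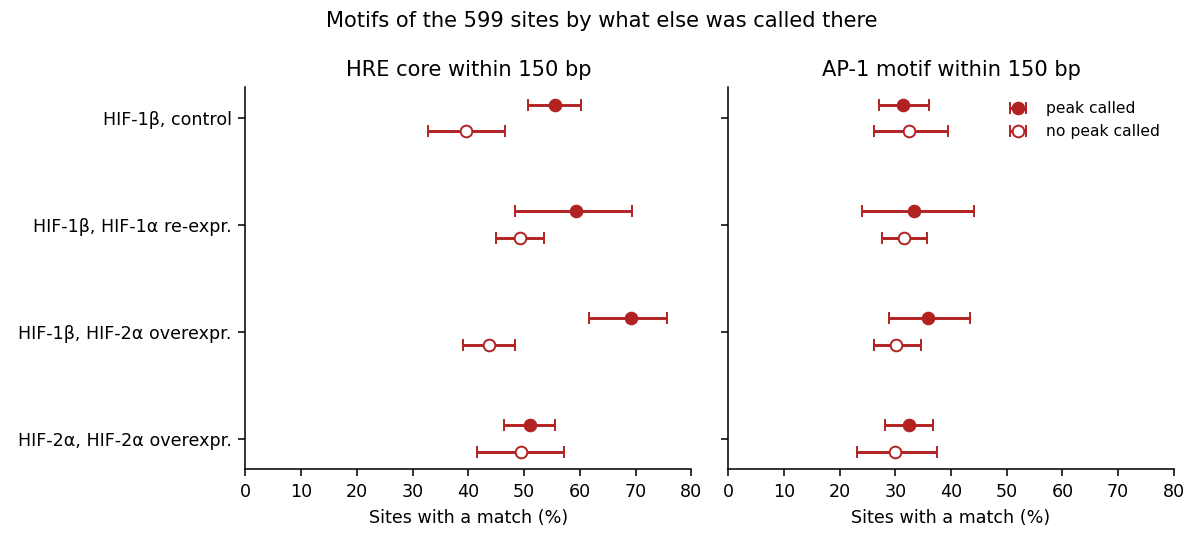
Percentage of the 599 sites with the HRE core (left) or the AP-1 motif (right) within 150 bp of the midpoint, split by whether a peak was called there (filled) or not (open) in each of 4 other lists; bars are 95% Wilson intervals. The core is more frequent with HIF-1β in control cells (55.6% against 39.5%) and in overexpressing cells (69.1% against 43.7%), while AP-1 stays between 29.9% and 35.8%.

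The gene expression measurements bear on whether genes next to the 599 sites changed when HIF-1α was put back. RNA-seq libraries held 27852754 to 54287621 counts. Levels are given as CPM, counts divided by the size of the library after scaling with edgeR's TMM factors, and a log2 fold change is against control cells. CPM of HIF1A were 171, 1682 and 473 in the re-expressing cells against 30.4, 36.7 and 152 in control cells, and those of EPAS1, which encodes HIF-2α, 946, 3244 and 879.8 in the overexpressing cells against 456, 224 and 162 in control cells. In the re-expressing cells EPAS1 was at 575, 627 and 397, higher than control in each replicate pair but overlapping with it. The targeted gene did not overlap with control in either pool, although control replicate 3 was close to the lowest re-expressing library for HIF1A. By the paper, the HIF1A transcripts of 786-O cells are truncated or fused and are predicted to encode no active HIF-1α. Counts per gene do not separate these from the full-length form. Of the renal markers PAX8, PAX2, VIM, KRT8, KRT18 and CDH2 each was at 8.53 CPM or more in every library, and PTPRC, PECAM1, CDH5, CD3E and ALB, markers of blood, endothelial and liver cells, were at 0 to 0.838 CPM.

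The 599 sites had 565 distinct nearest genes, of which 290 were in the count table and 250 passed edgeR's filter on low counts. These 250 genes had a median of 54.5 CPM in control cells, against 24.7 over all 14225 genes tested, and 64 of them were also nearest to a control HIF-2α site of another class. Their median log2 fold change after HIF-1α re-expression was 0.213, against 0.0364 over all genes tested, and 153 of them (61.2%) were higher, against 52.4%. After HIF-2α overexpression the median was 0.101, against -0.0235, and 57.2% were higher, against 47.5%. Both comparisons use the same 3 control libraries. Without re-expressing replicate 2 the median after re-expression was 0.0734 and 56.1% were higher, against 0.022 and 51.3% of all genes. With every gene within 10 kb in place of the nearest one it was 0.0743, with 54.5% higher. After overexpression the median was 0.0523 and 0.0488 without overexpressing replicates 2 and 3 and 0.0134 without control replicate 3, and with every gene within 10 kb it changed sign, to -0.0568 with 45.5% higher. The nearest genes of the retained sites had medians of 0.14 and 0.119.

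In the fit without a replicate term no nearest gene passed an adjusted p of 0.05 by edgeR's quasi-likelihood test in either comparison, and no gene at all did (0% of 14225 in both). At an unadjusted p under 0.05 there were 60 of the 250 (24.0%) after HIF-1α re-expression, against 19.4% of all genes, and 37 (14.8%) after HIF-2α overexpression, against 5.89%. The libraries with the same replicate number deviated together, and a blocked fit, with a term for the replicate number, called 22 of the 250 nearest genes higher (8.8%) and 9 lower (3.6%) after HIF-1α re-expression. Over all genes tested that fit called 5.41% higher and 2.55% lower. For the 148 tested genes nearest to the retained sites it called 10 higher (6.76%) and 4 lower (2.7%). After HIF-2α overexpression it called none of the 250 higher, where 0.112% of all genes were, and 1 lower, where 0.155% were. DESeq2 called 15 of 249 (6.02%) after re-expression, against 5.25% of all genes, and 4 of 263 (1.52%) after overexpression, against 0.412%.

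The number of calls depended on single libraries. With the block, the 31 calls after HIF-1α re-expression went to 0 without re-expressing replicate 2, overexpressing replicate 1, control replicate 2 or control replicate 3, to 1 without re-expressing replicate 3, to 8 without re-expressing replicate 1, to 13 or 21 without overexpressing replicate 3 or 2, and to 51 without control replicate 1. The share of all genes called moved with them, from 0% in the fits with 0 calls, through 0.237%, 1.46%, 3.47% and 5.7%, to 16.6% without control replicate 1, against 0.4%, 3.16%, 5.16%, 8.27% and 20.1% of the nearest genes. The adjusted p-values of single genes are from the fit with the block unless stated. Nothing in the sources says whether the replicates were separate cultures, so p-values measure the spread between these libraries, which may be technical. Fewer cells expressing a gene and less RNA per cell cannot be told apart in these bulk libraries.

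Of the genes called higher after HIF-1α re-expression, the largest changes were in SSPN, KCNE4, NRCAM, EGFR, ESRG and ADAM12. ADAM12, EGFR and FOSL2 were also nearest to 1 control HIF-2α site each with HIF-1α. EGFR, the epidermal growth factor receptor, had 3 of the 599 sites nearest to it, all in its introns and all called for HIF-1β in control cells and for HIF-2α in overexpressing cells. Its CPM were 125, 90.6 and 38.1 in control replicates 1, 2 and 3, 301, 251 and 209 in the re-expressing cells and 152, 372 and 134 in the overexpressing cells. Each transduced group lay above the control group without overlap. The log2 fold change was 1.71 (SE 0.35, edgeR adjusted p = 0.0366) on re-expression and 1.40 (SE 0.36, edgeR adjusted p = 0.16) on overexpression. Over 23 alternative fits with DESeq2 or edgeR the adjusted p ran from 0.0207 to 0.348 in the former and from 0.0587 to 1 in the latter.

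SSPN encodes sarcospan, a membrane protein of the dystrophin complex, and a site lay 7.48 kb upstream of its start. Its CPM were 5.2, 1.71 and 4.82 in control, 8.55, 7.24 and 49.8 in re-expressing and 4.17, 3.25 and 5.11 in overexpressing cells. All re-expressing libraries lay above the control libraries, and re-expressing replicate 3 stood apart from the other two. The log2 fold change was 2.14 (SE 0.51, edgeR adjusted p = 0.0427). Without that library it was 1.31, with an edgeR adjusted p of 0.11, and over 22 alternatives with edgeR (DESeq2 gave none) the adjusted p ran from 0.0244 to 0.422.

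KCNE4, an accessory subunit of voltage-gated potassium channels, had CPM of 3, 0.768 and 2.4 in control and 5.2, 4.5 and 15 in re-expressing cells, a log2 fold change of 1.94 (SE 0.43, edgeR adjusted p = 0.0399). NRCAM, a cell adhesion molecule of the immunoglobulin family, had 5.95, 3.98 and 7.95 in control and 31.1, 12.2 and 18.9 in re-expressing cells, and a log2 fold change of 1.76 (SE 0.27, edgeR adjusted p = 0.0299). The site in the NRCAM intron was in none of the 4 other lists. In both genes the groups did not overlap, and the overexpressing cells, at means of 2.72 and 4.28 CPM, overlapped the control libraries, whose means were 2.06 and 5.96.

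ADAM12, a membrane metalloprotease, had CPM of 16.4, 26 and 13.3 in control and 41.8, 80.1 and 37.4 in re-expressing cells, a log2 fold change of 1.5 (SE 0.23, edgeR adjusted p = 0.0293). The site lay in its intron, 18.6 kb downstream of the nearest start. ESRG, a non-coding RNA known from embryonic stem cells, was low throughout, at 0.983, 1.96 and 1.04 CPM in control and 2.5, 4.48 and 4.47 CPM in re-expressing cells, and its site lay 117 kb away in an intron of CACNA2D3. FOSL2, a FOS-family subunit of AP-1, was the only one of 7 AP-1 genes nearest to one of the 599 sites. That site lay 36.4 kb upstream of it, was in none of the 4 other lists and held neither motif. CPM of FOSL2 were 124, 137 and 102 in control, 153, 259 and 289 in re-expressing and 125, 139 and 148 in overexpressing cells. Re-expression gave 0.91 (SE 0.23, edgeR adjusted p = 0.0455) on the log2 scale.

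The other genes called higher had log2 fold changes of 0.75 to 1.43, and all were higher in 3 of 3 replicate pairs. They include NRP1, a co-receptor for VEGF and semaphorins, MYLK, the myosin light chain kinase, and RBPJ, the DNA-binding factor of Notch signalling, all chosen after their values were seen. CPM of NRP1 (mean ± SD, n = 3) were 183 ± 36, 382 ± 142 and 86 ± 14.7 in control, re-expressing and overexpressing cells, those of MYLK 112 ± 3.49, 269.8 ± 114 and 91.7 ± 1.89 and those of RBPJ 159 ± 9.99, 273 ± 73.3 and 196 ± 27.5. The mean of the overexpressing cells was thus below the control for NRP1 and MYLK and above it for RBPJ.

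Among the 9 genes called lower after HIF-1α re-expression, SEMA6A, CD70 and FHL2 had the largest changes. SEMA6A and FHL2 were also nearest to 1 retained site each, and CD70 to 1 shared site. CD70, a TNF-family ligand of lymphocyte CD27 that is expressed by many renal carcinomas, had CPM of 234, 329 and 418 in control, 116, 156 and 156 in re-expressing and 188, 187 and 303 in overexpressing cells. Its re-expressing libraries lay below all control libraries, with a log2 fold change of -1.17 (SE 0.19, edgeR adjusted p = 0.0308), and the site lay 6.08 kb upstream. SEMA6A, a transmembrane semaphorin, had 38.7, 205 and 168 in control, 18, 73.7 and 77 in re-expressing and 62.9, 197 and 208 in overexpressing cells. Its groups overlapped and replicate 1 was the lowest in every pool, but each re-expressing library was below the control of the same number, and the log2 fold change was -1.24 (SE 0.18, edgeR adjusted p = 0.0293) with the block and -1.29 (SE 0.69, edgeR adjusted p = 0.328) without.

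FHL2, a LIM-domain cofactor of transcription, had CPM of 384, 267 and 531 in control, 203, 176 and 187 in re-expressing and 249, 111 and 308 in overexpressing cells, and a log2 fold change of -0.98 (SE 0.25, edgeR adjusted p = 0.0486). The remaining named genes were COMMD7, ATOX1, a copper chaperone, and CHCHD3, a subunit of the mitochondrial inner membrane complex MICOS, with log2 fold changes of -0.86, -0.79 and -0.79. All 3 were lower in each of 3 pairs, and CHCHD3 overlapped between groups. Over the alternative fits the adjusted p-values of the 13 named genes ran from 0.00612 to 0.605 with DESeq2 or edgeR.

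COL14A1, which encodes a collagen of the fibril surface, was the 1 nearest gene called after HIF-2α overexpression. Its CPM were 3.13, 1.43 and 3.26 in the overexpressing cells against 11.3, 12.9 and 11.4 in control and 11.6, 15.4 and 21.5 in re-expressing cells, with no overlap between overexpressing and control libraries. The log2 fold change was -2.22 (SE 0.33, edgeR adjusted p = 0.0372), and over 23 alternative fits with DESeq2 or edgeR the adjusted p ran from 1.1e-05 to 1.0. The site lay in an intron of the gene and was called for overexpressed HIF-2α and for HIF-1β in control and re-expressing cells.

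**Figure D5:**
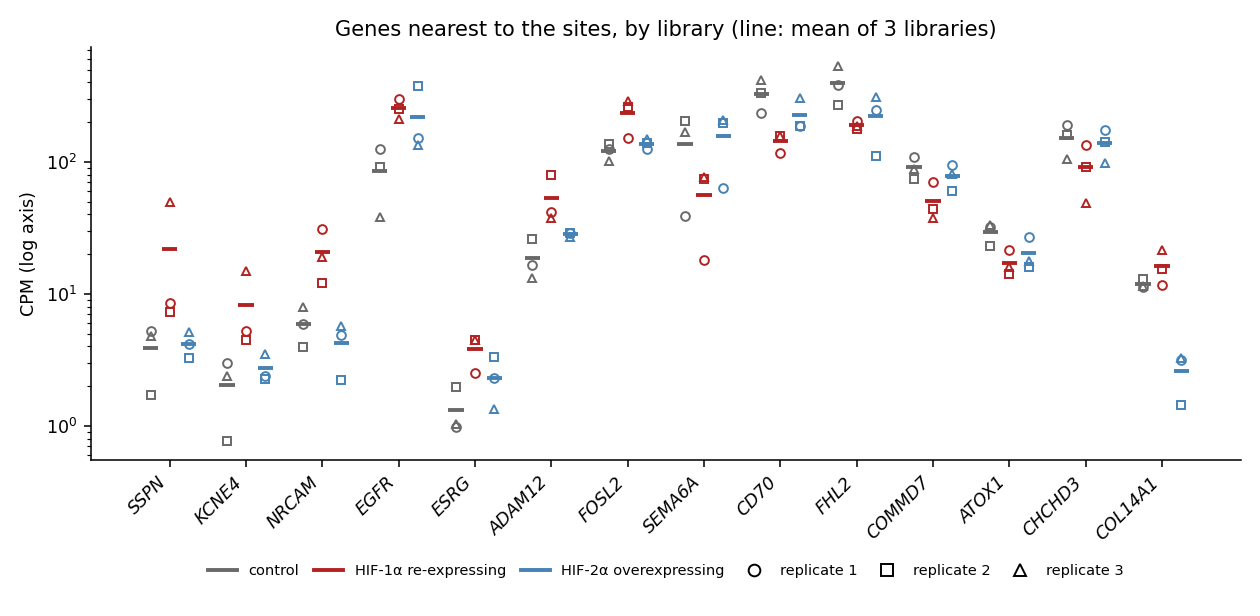
CPM (log axis) of 14 genes nearest to the 599 sites in each of the 9 RNA-seq libraries; symbols are replicates 1, 2 and 3, colours the cell pools and short lines the means of 3 libraries. Re-expressing libraries (red) lie above the control libraries (grey) from SSPN to FOSL2 and, in each pair, below them from SEMA6A to CHCHD3, while COL14A1 is low in the overexpressing cells (blue, mean 2.61 against 11.9).

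Of 40 known HIF target genes 4 were nearest to one of the 599 sites, against 3 for the retained sites, 4 for the HIF-1α sites and 15 for the shared sites. Of all 23441 genes in the count table, 290, 162, 197 and 233 were nearest to sites of these classes. The classes thus differed in size, and the 4 beside the 599 sites came from the largest. The 4 genes nearest to the 599 sites were PLIN2, LOXL2, STC1 and TGFBI, and none was called in either comparison with the block. That fit called 6 of the 38 tested genes of the list higher on re-expression and 3 on overexpression, with none lower. Of all genes tested it called 5.41% higher and 2.55% lower on re-expression, and 0.112% and 0.155% on overexpression. The median log2 fold changes of that list were 0.503 and 0.994, against 0.043 and -0.0138 over all genes tested. PLIN2, the coat protein of lipid droplets, had CPM of 577, 458 and 436 in control, 455, 574 and 417 in re-expressing and 732, 1502 and 1229 in overexpressing cells. Its re-expressing libraries overlapped the control libraries, and its overexpressing libraries lay above them, with 1.19 (SE 0.26, edgeR adjusted p = 0.119) on the log2 scale and an adjusted p of 0.0341 from DESeq2. Over 23 alternatives with edgeR or DESeq2 the adjusted p ran from 0.0341 to 1. PLIN2 also had 1 HIF-1α site and 1 shared site nearest to it.

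STC1, the secreted hormone stanniocalcin, had its site 0.186 kb from a start, called in all 4 other lists. Its CPM were 83.3, 40.1 and 52.4 in control, 60.9, 182 and 142 in re-expressing and 112, 294 and 222 in overexpressing cells, with no overlap between overexpressing and control libraries. The change there was 1.67 (SE 0.46, edgeR adjusted p = 0.192) on the log2 scale, with an adjusted p of 0.0394 from DESeq2 and a range of 0.0228 to 1 over 23 alternatives with edgeR or DESeq2. LOXL2, a lysyl oxidase that crosslinks collagen, had 678 ± 226, 1026 ± 496 and 1279 ± 598 CPM (mean ± SD, n = 3), and groups that overlapped in both comparisons. LOXL2 was also nearest to 1 shared site.

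TGFBI, a secreted matrix protein, was the gene with most of the 599 sites, 4 in all, and was also nearest to 1 retained site. The 4 sites lay 11.8 and 8.28 kb upstream of a start, and 4.38 and 0.118 kb upstream of starts within the gene, in introns. None of the 4 was called for HIF-1β in overexpressing or re-expressing cells, 3 were called for overexpressed HIF-2α, and 2 held AP-1 and none the HRE core. CPM of TGFBI were 795, 1697 and 3238 in control, 1065, 1679 and 6286 in re-expressing and 2449, 3158 and 4105 in overexpressing cells. The groups overlapped in both comparisons, and replicate 3 was the highest in every pool.

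The other fixed lists held few of these genes. PAX8, the renal lineage factor, was the only one of 10 such factors and had a site 5.17 kb upstream. Its CPM were 364, 224 and 235 in control, 288, 325 and 175 in re-expressing and 219, 181 and 195 in overexpressing cells, with log2 fold changes of -0.06 and -0.44 and SEs of 0.23 and 0.23. The overexpressing libraries all lay below the control libraries, and neither change passed the threshold. No gene of that list was called in either comparison, and its median log2 fold changes were -0.198 and -0.526. EGFR was the only one of 13 genes of growth factor signalling and its feedback, and none of 16 genes of the cytoskeleton and adhesion was nearest to one of the 599 sites. On re-expression 1 of the AP-1 genes, 1 of the growth factor genes and 3 of the cytoskeleton genes were called higher and none lower, with median log2 fold changes of 0.468, 0.0853 and 0.471, in the fit that called 5.41% of all genes higher and 2.55% lower. That fit called no gene at all once some single libraries were left out, so these list calls, like the others, depend on single libraries. On overexpression none of these was called, with medians of -0.23, -0.0681 and 0.0889.

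Most nearest genes had a single site. Of the 565 genes 27 had 2 or more and 6 had 3 or more: TGFBI, EGFR, FAH, C9orf3, EFNA5 and RNU4-50P. FAH, the last enzyme of tyrosine breakdown, had 3 sites at 0.256, 0.709 and 2.21 kb from starts, all called for HIF-1β in control cells and for both subunits in overexpressing cells. Its CPM were 122, 50.4 and 94.7 in control, 106, 45.5 and 37.2 in re-expressing and 85.3, 45 and 39 in overexpressing cells, lower than control in each pair of both comparisons but overlapping, with log2 fold changes of -0.58 (SE 0.25, edgeR adjusted p = 0.141) and -0.68 (SE 0.25, edgeR adjusted p = 0.285).

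C9orf3, named AOPEP in the annotation, encodes an aminopeptidase and had 3 intronic sites, each with an HRE core. Its CPM were 35.4 ± 19.3, 19.8 ± 2.13 and 20.4 ± 10.7 (mean ± SD, n = 3) in the control, re-expressing and overexpressing cells, and the groups overlapped. EFNA5, an ephrin, had sites between 22.8 and 66.0 kb from its starts and 83.9 ± 20.5, 67.9 ± 20.9 and 116 ± 25.4 CPM. The sites nearest to the U4 RNA pseudogene RNU4-50P, whose level was not analysed here, lay in an intron of TOX or beside that gene, and none of them held either motif.

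Close to starts, within 1 kb, the 5 tested genes with the highest control levels were TGFBI, RTN4, IARS, MICAL2 and CD109. RTN4, which shapes the endoplasmic reticulum, had 1085 ± 189, 888 ± 135 and 912 ± 83.2 CPM (mean ± SD, n = 3) in the control, re-expressing and overexpressing cells, and IARS, the isoleucyl-tRNA synthetase, 613 ± 311, 585 ± 353 and 585 ± 279.7. MICAL2, an enzyme that oxidises actin, was also nearest to 1 retained site. It had 321 ± 89, 455 ± 284 and 326 ± 85.3, and CD109, a membrane-anchored protein, 283 ± 158, 379 ± 59.5 and 570.4 ± 274. None of these passed the threshold in the fit with the block, and all overlapped between groups.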

How the data were processed

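Chromatin from 3 pools of transduced 786-O cells was immunoprecipitated with antisera to HIF-1α, HIF-2α or HIF-1β, 1 library per antiserum and pool. Per the labels and the study's methods, the authors trimmed reads with Trim Galore 0.3.3, aligned them to GRCh37 with BWA 0.7.5a-r405, called peaks with MACS and T-PIC, and deposited windows of 2500 bp with no score. For RNA, the authors aligned reads with TopHat2 2.0.8b and deposited raw counts per gene symbol from HTSeq 0.5.4p3, 3 libraries per pool.

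Windows were taken to overlap if they shared 1 base. Midpoints stood for summits. Start sites came from GENCODE release 44 on GRCh37, and 20654 of 23441 count table symbols matched directly and 1399 by an older symbol, with 1388 unmatched. Motifs were searched on both strands within 150 bp of the midpoint, and promoters of RefSeq served only as motif background. Versions were Python 3.11.15, pysam 0.24.0, R 4.3.3, edgeR 4.0.16 and DESeq2 1.42.0.

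Counts of all genes in the 9 libraries were fitted together and tested by quasi-likelihood in edgeR, with Benjamini-Hochberg adjustment at 0.05. Libraries with the same replicate number in different pools deviated together (9 pairs, correlations of 0.348 to 0.652, against -0.478 to 0.0281 in 18 pairs of different numbers), so the fit with the replicate block is given beside the one without. In simulated counts for the re-expression comparison (14085 genes), the fits recovered 169 and 164 of 200 changes of 4-fold without and with the block, with 10 and 6 false calls. Each library was simulated independently, with no deviation shared by replicate number, and changes were placed only in genes above a minimum level. The simulation therefore does not show how either fit performs where libraries deviate together, as they did here.

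Genes were named if nearest to one of the sites and on 1 of 5 lists, among the 6 largest called changes per direction at 1 CPM or more, nearest to 3 or more sites, or among the 5 highest in control cells within 1 kb. The sites and the lists were chosen with earlier results of these data known. Other overlaps, motif windows, start sites, DESeq2, filters and leaving out each library were tried as alternatives.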

Additional observations from a re-analysis of the deposited data

How the results depend on the processing

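With midpoints at most 250 bp apart as the overlap, 995 sites were selected, and their shares were 31.0%, 10.5% and 19.6% for HIF-1β in control, re-expressing and overexpressing cells and 42.7% for overexpressed HIF-2α. With at least 50% of the window in common, HIF-1β in control cells was at 64.3%. The differences from the retained sites stayed negative in all 4 lists under each overlap tried. The share within 5 kb of a start site was 19.4% with protein-coding start sites only and 22.9% with one start site per gene. The HRE core was at 65.9% within 250 bp of the midpoint, 95.2% in the whole window and 37.1% for ACGTG only. AP-1 was at 41.7% within 250 bp, 65.3% in the whole window and 38.9% for TGANTCA, and its difference from the retained sites was 8.22 percentage points (1.94 to 14.3) within 250 bp and 1.74 (-4.39 to 7.96) in the whole window.

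No nearest gene was called in the fit without the block. With the replicate block 31 were called after HIF-1α re-expression and 1 after HIF-2α overexpression, and DESeq2 called 15 and 4. Chosen after seeing the data, the block with every gene within 10 kb gave 26 of 200 (13.0%) and 0, and with protein-coding start sites only 51 of 454 (11.2%) and 3, against 12.4% of the nearest genes for re-expression and 7.96% of all genes, and the block with each library left out gave 0 to 51 and 0 to 5. The re-expression count was 8 and 1 without re-expressing replicates 1 and 3, 21 and 13 without overexpressing replicates 2 and 3, and 51 without control replicate 1. Without 1 library a pool kept 2, and the overexpression count was 5 without re-expressing replicate 3 or without control replicate 1, 1 without overexpressing replicate 3 and 0 otherwise. For these overexpression counts under alternatives of the block, the share of all genes called is not given here. They are therefore not read as a result about the sites. The cause of these differences was not tested. None of 321 alternative fold changes of the 14 named genes called with the block turned sign, and 57 of them passed the threshold. The peak lists hold no signal, so they do not give the depth behind a missing call at any one site.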
